A study of Mus musculus with 8 samples.

Results

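The genes described here encode the proteins that sort cargo on endosomes: the sorting nexins, the vacuolar protein sorting (VPS) proteins and the ESCRT machinery. Members were chosen by gene symbol, as every row of the count table named Snx, Vps or Chmp with a number, together with Hgs, Stam, Stam2, Tsg101 and Pdcd6ip. This gave 79 of the 35583 genes listed, of which 30 are sorting nexins, 25 belong to a group called retromer-HOPS here, and 24 are ESCRT genes. The rule reads symbols alone, but it was set with earlier results of these data known. Vps72 matched by name alone, since its protein is known as a subunit of a chromatin remodelling complex.

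The study measured RNA by bulk sequencing in microglia, the resident macrophages of the brain, sorted from hypothalamus of wild-type mice that were young. The mice had received dye-labelled plasma protein 20 hours before the cells were taken, and the sort divided microglia that carried the label (plasma-positive, 4 libraries) from microglia that did not (plasma-negative, 4 libraries). Both groups therefore share the genotype, the injection and the time, and the comparison asks which genes differ between microglia that had taken up the protein and those that had not. The Smart-seq2 libraries cover whole transcripts from little RNA and carry no molecular identifiers. The labels do not say whether the libraries of a group came from separate animals or pools, so p-values measure only the spread between these libraries, which may be technical. Whether same-numbered libraries of both groups came from the same animals is not stated either.

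Endocytosed material enters early endosomes, from which receptors are returned to the plasma membrane or the Golgi while other cargo goes on to the lysosome. Sorting nexins share a PX domain that binds phosphoinositides on endosomes, and several of them act with retromer, a complex of VPS26, VPS29 and VPS35 that retrieves receptors. HOPS and CORVET tether endosomes and lysosomes before they fuse, and ESCRT complexes 0 to III gather ubiquitinated receptors and bud them into the lumen of multivesicular bodies. Microglia are known for phagocytosis and lysosomal degradation, which both draw on this machinery.

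Total counts per library ranged from 2963094 to 21422738, and the smallest was plasma-negative replicate 4. All 8 microglial marker genes listed were detected in every library, with a summed level of 56659 to 66991 CPM (counts scaled to library size) in plasma-negative and 62104 to 66847 CPM in plasma-positive libraries, ranges that overlap, and edgeR called 1 of the 8, Csf1r, higher. The calls that follow are those of edgeR as well. Neuronal markers summed to 2.69 to 32.7 and 3.91 to 278 CPM, with the highest value in plasma-positive replicate 2, and none of the 4 tested of 6 listed passed the test. Oligodendrocyte markers summed to 146 to 230.2 and 221 to 466 CPM (0 of 4 tested passed, 5 listed), astrocyte markers to 208 to 319 and 188 to 199 CPM (0 of 2, 5 listed) and endothelial markers to 27.3 to 52.5 and 18.7 to 63.9 CPM (0 of 2, 5 listed). Monocyte and neutrophil markers summed to 0.291 to 13.8 and 0 to 474 CPM, where the highest value was plasma-positive replicate 3, which held S100a8 and S100a9, and none of the 5 passed the expression filter. Border macrophage markers summed to 0 to 3.61 and 1.42 to 15.3 CPM (0 of 1 tested passed, 5 listed), and of these Cd163, F13a1 and Lyve1 were at 0 counts in all 8 libraries. Proliferation markers summed to 0.336 to 10.2 and 33.4 to 65.6 CPM. Of 6 listed, 3 were tested and 2, Ccnb2 and Top2a, were called higher in plasma-positive libraries. Ccnb2 was at 0 counts in all plasma-negative libraries and Top2a at 0, 0, 2 and 0. Both passed the expression filter only through the plasma-positive libraries, so their direction was fixed by that filter. Mki67 and Ccnb1, not tested, were at 0 counts in plasma-positive replicates 1 and 2. DESeq2, which called 6.49% of all genes it tested, also called Aif1 (microglia), Cnp (oligodendrocytes), Map2 (neurons), Aldh1l1 (astrocytes) and Birc5 (proliferation) higher. Map2, Aldh1l1 and Birc5 did not pass edgeR's expression filter. Aldh1l1 was at 0 counts in all plasma-negative libraries and at 56, 75, 0 and 4 in plasma-positive replicates 1 to 4. Map2 was at 41, 715, 26 and 0 counts there. The astrocyte marker Slc1a3 lay lower, at a log2 fold change of -0.36 ± 0.16 (SE), not called. All 4 plasma-positive libraries lay above the others for Csf1r, Aif1, Cnp, Ccnb2, Cdk1 and Top2a and below them for Cx3cr1. The part of these other transcripts in the results on sorting genes was not tested.

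Of the 79 members, 77 passed the expression filter. The other two were Snx31, a sorting nexin with a FERM-like domain at 0, 0.252, 0 and 0 CPM in plasma-negative and 0.110, 0, 0 and 0 CPM in plasma-positive replicates 1 to 4, and the ESCRT-I subunit gene Vps37d at 0, 0, 0.349 and 1.01 CPM (plasma-negative) and 0.110, 3.97, 0.152 and 1.79 CPM (plasma-positive). By edgeR's quasi-likelihood test with Benjamini-Hochberg adjustment over 13277 tested genes, 1 member rose in plasma-positive microglia at an adjusted p under 0.05 and none fell. The call was Snx3. Over all tested genes 187 were called (1.41%), 112 of them higher (0.844%) and 75 lower (0.565%), so a count of 1 among 77 is near the background. At an unadjusted p under 0.05 there were 9 members higher and 7 lower, which is 20.8% of those tested against 13.8% of all tested genes. DESeq2 called 4 members, all higher (Snx3, Snx32, Vps28 and Vps26b), against 6.49% of all genes it tested. In limma, fitted to the log2 of the RPKM plus 1 or plus 0.1, 3 were called each time (Snx3, Snx32 and Vps28), with 3.37% and 3.25% of all genes. Without plasma-negative replicate 4, the smallest library, edgeR called 2 members (Snx1 and Snx3), with 1.45% of all genes. In bulk RNA, fewer cells of a type and less RNA per cell cannot be told apart, and this holds for every difference below.

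The libraries of the groups did not overlap for 10 of the 77 members (13%), against 10.3% of all tested genes. Plasma-positive libraries were all higher for 8 (Snx3, Snx32, Snx5, Snx6, Vps28, Chmp1a, Chmp3 and Vps4b), where 5.68% of all tested genes were, and all lower for 2 (Snx10 and Vps13b), where 4.59% were. The median log2 fold change, plasma-positive over plasma-negative, was 0.09 over the members and 0.01 over all tested genes, and 46 members lay above 0 and 31 below. By group the medians were 0.05 for 29 sorting nexins (17 above 0), 0.06 for 25 retromer-HOPS genes (14 above 0) and 0.22 for 23 ESCRT genes (15 above 0). The sorting nexin median changed sign in several alternatives: it was -0.06 by library totals only (12 of 29 above 0), -0.03 after the correction for exon length and GC content (14 above 0) and -0.03 without plasma-negative replicate 1 (13 above 0). The retromer-HOPS median was -0.06 by library totals only (11 of 25 above 0) and -0.0044 with the same correction fitted with degree 2 on all genes (12 above 0), while the ESCRT median stayed above 0 in each of the 21 alternatives but ran from 0.08 to 0.38. The extreme fitted values belonged to genes of low CPM: Snx33 at 2.37 ± 1.82 (SE), with 3.76, 0, 0 and 0 CPM in plasma-negative and 1.21, 11.8, 7.66 and 0 CPM in plasma-positive libraries, and Snx21 at -1.19 ± 0.52 (SE).

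**Figure D1:**
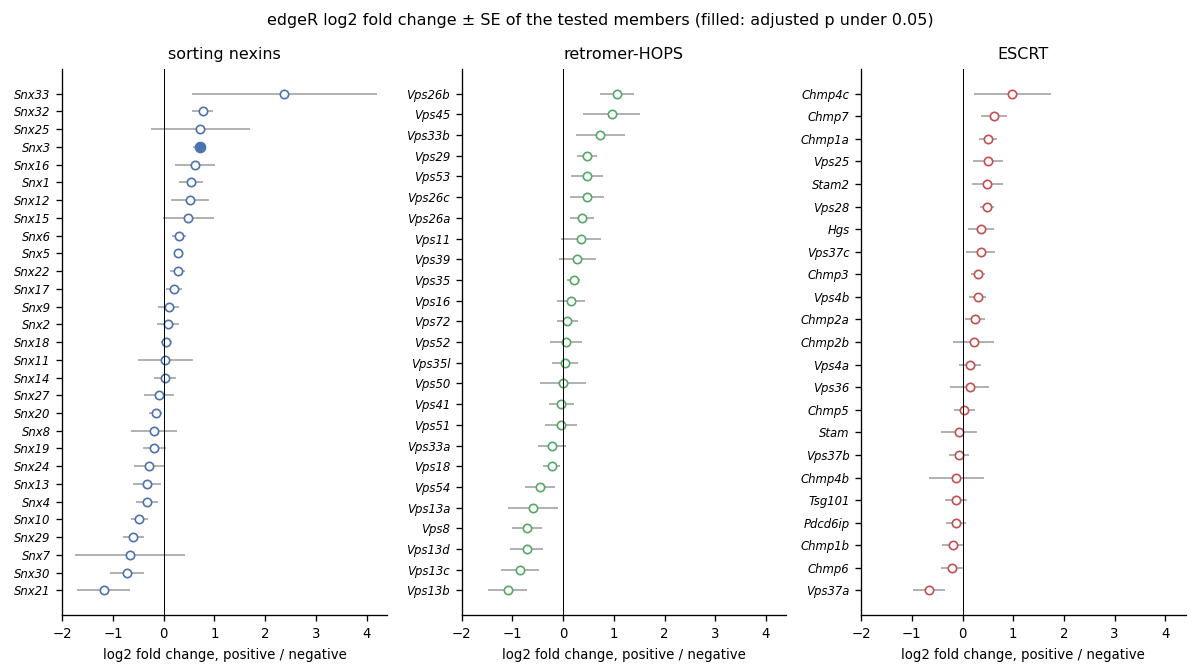
Log2 fold change (x axis, plasma-positive over plasma-negative) with its SE (bars) for the 29 sorting nexins, 25 retromer-HOPS genes and 23 ESCRT genes tested, each panel sorted by value. Snx3 is the one filled point (adjusted p under 0.05), the 4 Vps13 genes lie among the 5 lowest retromer-HOPS genes, and the 4 retromer genes all lie above 0.

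Snx3 encodes a small sorting nexin that is little more than a PX domain, and it is known to work with retromer in returning the Wnt carrier Wntless to the Golgi. The gene (ENSMUSG00000019804, chr10:42502030-42535381 in mm10, plus strand, 1413 bases of merged exon) was measured at 122, 123, 96.6 and 125 CPM in plasma-negative replicates 1 to 4. In plasma-positive replicates 1 to 4 it was at 194, 172, 193 and 205 CPM. Every plasma-positive library lay above every plasma-negative one, and the lowest value, plasma-negative replicate 3, stood apart from its group. The means were 117 ± 13.5 and 191 ± 14 CPM (SD, n = 4), a log2 fold change of 0.71 ± 0.13 (SE; edgeR adjusted p = 0.0246). The smallest library still held 371 Snx3 counts. Leaving out any 1 library kept the log2 fold change between 0.63 and 0.76, but the adjusted p stayed under the threshold only without plasma-negative replicate 4 (0.0345). In the other seven fits it was 0.0506 to 0.0802, and it was 0.0653 without plasma-positive replicate 3, the library with neutrophil transcripts. Correcting the counts for exon length and GC content lowered the log2 fold change to 0.45, with an edgeR adjusted p of 0.262, within a range of 1.40e-05 to 0.374 over all alternatives.

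The promoter of Snx3 is shown because it is the one member called. It covers 250 bases before to 50 after the annotated start (chr10:42501804-42502103, plus strand, RefSeq on GRCm38.p6). Capitals in this and the following promoters mark CACGTG, the E-box core that the MiT/TFE factors of lysosomal genes read, among many others.
Snx3: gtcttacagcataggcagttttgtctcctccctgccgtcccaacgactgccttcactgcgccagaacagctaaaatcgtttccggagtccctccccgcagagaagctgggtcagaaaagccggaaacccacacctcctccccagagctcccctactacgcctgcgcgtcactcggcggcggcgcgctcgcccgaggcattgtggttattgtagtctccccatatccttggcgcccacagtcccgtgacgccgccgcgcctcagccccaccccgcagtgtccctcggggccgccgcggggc
The window does not hold these letters. CACGTG is a palindrome, so 1 search covers both strands. It occurred in 7.15% of all 32851 promoter windows of this length and in 9 of the 65 windows (13.8%) that belong to the 54 members matched by symbol. The 8 members with a match were Pdcd6ip, Snx5, Snx8, Snx18, Vps16, Vps26a, Vps33a and Vps50. These are letter matches in a window and say nothing of binding.

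The SNX-BAR proteins pair a PX domain with a membrane-bending BAR domain, and SNX1 or SNX2 with SNX5 or SNX6 form the tubules through which receptors leave endosomes. None of the 12 genes listed was called by edgeR, while DESeq2 and both limma fits on RPKM called Snx32, and 8 lay above 0. Snx5 was at 501, 497, 447 and 573 CPM in plasma-negative and 585, 614, 663 and 599.5 CPM in plasma-positive replicates 1 to 4. Those values did not overlap, with a log2 fold change of 0.29 ± 0.09 (SE; edgeR adjusted p = 0.171). Snx6 read 153, 144, 155 and 135 CPM in plasma-negative and 223, 158, 186 and 155 CPM in plasma-positive libraries. Here the nearest values of the groups were 155.3 and 155.5 CPM, and the log2 fold change was 0.30 ± 0.14 (SE; edgeR adjusted p = 0.385).

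Snx32, a close relative of Snx5 and Snx6, was at 34.5, 30.8, 26.4 and 31.6 CPM in plasma-negative replicates 1 to 4. Plasma-positive libraries held 55.2, 51, 56.6 and 46.9 CPM of it. All 4 were higher, and the log2 fold change of 0.77 ± 0.21 (SE) had an edgeR adjusted p of 0.0987. DESeq2 called it with an adjusted p of 0.00174, and over all alternatives that value ran from 0.00174 to 0.439. The exons of Snx32 overlap those of Cfl1, an abundant cofilin gene, over 13.2% of their length, so its counts are uncertain.

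Snx1 had 57.5, 58.3, 62.5 and 123 CPM in plasma-negative libraries and 110.1, 98.5, 116 and 109 CPM in plasma-positive ones. Plasma-negative replicate 4, the smallest library, lay above all 4 plasma-positive values while the other three lay below all of them. The log2 fold change was 0.54 ± 0.24 (SE; edgeR adjusted p = 0.35), and without that library it was 0.87 (edgeR adjusted p = 0.0283, range over all alternatives 0.0283 to 0.599). Its partner Snx2 spanned 102, 84.2, 176 and 166 CPM in plasma-negative and 141, 131, 130.0 and 156 CPM in plasma-positive libraries, which overlap, at a log2 fold change of 0.08 ± 0.22 (SE). That value was -0.03 when libraries were scaled by totals only. Snx18, an endocytic SNX-BAR protein with an SH3 domain, had 463 ± 35.4 and 480.1 ± 68.6 CPM (SD, n = 4), a log2 fold change of 0.05 ± 0.11 (SE).

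A further set of 10 sorting nexins, which includes Snx3, had 5 above 0 and 5 below. Snx10, a regulator of endosome and lysosome function known from osteoclasts, was at 139, 188, 113 and 137 CPM in plasma-negative and 106, 91.4, 112 and 104 CPM in plasma-positive replicates 1 to 4. All 4 plasma-positive values were lower, the nearest being 111.8 against 112.6 CPM, and the log2 fold change was -0.48 ± 0.17 (SE; edgeR adjusted p = 0.212). Snx29, one of the longer members, had 169.9 ± 37.7 and 112 ± 27.2 CPM (SD, n = 4) with overlapping libraries, a log2 fold change of -0.60 ± 0.21 (SE; edgeR adjusted p = 0.205). Snx20, which binds the leukocyte adhesion receptor PSGL-1, was at 224 ± 17.8 and 200.4 ± 22.3 CPM (SD, n = 4), with a log2 fold change of -0.16 ± 0.12 (SE). Snx29 and Snx20 were chosen for mention after their values were seen.

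The FERM-like sorting nexins recognise receptor tails. Snx17, which recycles LRP1 and integrins with the retriever complex, was at 181, 222, 225 and 206 CPM in plasma-negative and 232, 231, 316 and 186 CPM in plasma-positive libraries. These overlap, and the log2 fold change of 0.21 ± 0.16 (SE; edgeR adjusted p = 0.621) did not pass the test. Snx27, which links retromer to receptors with PDZ-binding tails, was at 42.8, 47.7, 44.2 and 49.8 CPM (plasma-negative) and 40.6, 55.3, 56 and 19.9 CPM (plasma-positive). Plasma-positive replicate 4 was the lowest of all 8, and the log2 fold change was -0.10 ± 0.30 (SE), or 0.14 without that library. Another 4 sorting nexins grouped together here (Snx13, Snx14, Snx19 and Snx25) had log2 fold changes from -0.33 to 0.72, none called by edgeR.

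**Figure D2:**
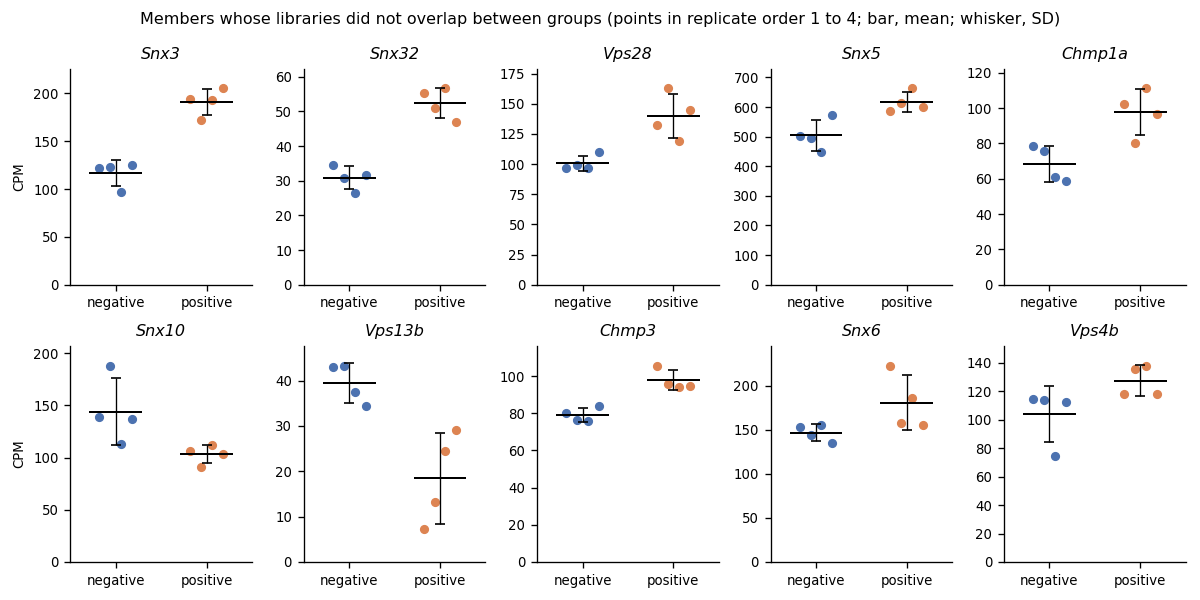
CPM (y axis, linear from 0) in each plasma-negative and plasma-positive library for the 10 members whose groups did not overlap, ordered by p, with the mean and SD. Snx3 is at 172 to 205 CPM in plasma-positive and 96.6 to 125 CPM in plasma-negative libraries, while the nearest values of Snx6 (155.3 and 155.5 CPM) and Snx10 (112.6 and 111.8 CPM) almost meet.

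Retromer retrieves receptors such as sortilin, SORL1 and the mannose 6-phosphate receptors from endosomes. All 4 of its genes lay above 0, with a median log2 fold change of 0.42. For 2 of them the unadjusted edgeR p was under 0.05, as for 13.8% of all tested genes. None of the 4 genes was called by edgeR. They lay above 0 in each of the 21 alternatives as well, with medians from 0.30 to 0.55. Summed over the 4 genes, the level was 360.1, 344, 387 and 416 CPM in plasma-negative and 456, 521, 483 and 484 CPM in plasma-positive replicates 1 to 4. The sums did not overlap, with means of 377 ± 31.9 and 486 ± 26.5 CPM (SD, n = 4), although the libraries of each single gene did.

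Vps26b, the less abundant of the 2 VPS26 genes, had 13, 24.7, 25 and 42.4 CPM in plasma-negative and 64, 59.3, 51 and 41.7 CPM in plasma-positive libraries. Only plasma-negative replicate 4 and plasma-positive replicate 4 overlapped, at 42.4 and 41.7 CPM. Its log2 fold change of 1.06 ± 0.33 (SE) had an edgeR adjusted p of 0.155, while DESeq2 gave 0.0469, the lowest in a range up to 0.401 over all alternatives. Corrected for exon length and GC content, the log2 fold change was 0.99. Vps26a had 122, 59.1, 125 and 96.2 CPM (plasma-negative) and 93.5, 131, 152 and 142 CPM (plasma-positive), a log2 fold change of 0.36 ± 0.24 (SE; edgeR adjusted p = 0.553).

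Vps29, the phosphoesterase-fold subunit shared with retriever, had 55.5, 68.9, 67.5 and 55.2 CPM in plasma-negative and 74.5, 96.1, 67.8 and 106 CPM in plasma-positive libraries. The lowest plasma-positive value fell between the 2 highest plasma-negative ones, and the log2 fold change was 0.48 ± 0.19 (SE; edgeR adjusted p = 0.295). Vps35, the scaffold subunit, had 169.5, 191, 169 and 222 CPM (plasma-negative) and 224, 234, 213 and 195 CPM (plasma-positive), overlapping, at a log2 fold change of 0.21 ± 0.13 (SE; edgeR adjusted p = 0.524).

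The promoters of the 2 VPS26 genes are printed side by side because the paralogues differ in the letters above. That of Vps26a is chr10:62486756-62487055 and that of Vps26b is chr9:27030045-27030344, both minus strand, RefSeq on GRCm38.p6, written 5′ to 3′ with CACGTG in capitals.
Vps26a: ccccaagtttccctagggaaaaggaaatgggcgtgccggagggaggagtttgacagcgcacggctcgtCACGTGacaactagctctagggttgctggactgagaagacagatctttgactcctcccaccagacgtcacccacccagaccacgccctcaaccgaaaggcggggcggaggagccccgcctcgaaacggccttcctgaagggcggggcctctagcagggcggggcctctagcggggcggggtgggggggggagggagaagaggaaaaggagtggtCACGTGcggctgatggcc
Vps26b: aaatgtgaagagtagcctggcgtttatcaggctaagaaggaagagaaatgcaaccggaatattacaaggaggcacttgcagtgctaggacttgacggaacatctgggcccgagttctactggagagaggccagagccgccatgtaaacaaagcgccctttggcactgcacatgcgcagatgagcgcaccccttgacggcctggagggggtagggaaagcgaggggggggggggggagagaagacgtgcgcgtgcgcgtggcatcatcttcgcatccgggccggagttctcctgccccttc
Vps26a holds CACGTG at 2 places and Vps26b does not hold it. The RNA of both genes lay above 0 in the comparison, and for neither did edgeR call a change.

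VPS13 proteins are very large bridges that carry lipids between organelles and are not part of retromer or HOPS. All 4 of their genes lay below 0, with a median log2 fold change of -0.78. An unadjusted edgeR p under 0.05 held for 3 of them, where 13.8% of all tested genes had one. None of the 4 genes was called by edgeR. They lay below 0 in each of the 21 alternatives too, with medians from -0.92 to -0.31. Their summed level was 149.7, 108, 145 and 129 CPM in plasma-negative and 51.6, 79.6, 78.4 and 86.6 CPM in plasma-positive libraries. Every plasma-positive sum was lower, with means of 133 ± 18.7 and 74 ± 15.4 CPM (SD, n = 4). Vps13b (chr15:35371160-35931229 in mm10) was at 42.9, 43.3, 37.5 and 34.3 CPM in plasma-negative and 7.26, 13.2, 24.4 and 29.2 CPM in plasma-positive replicates 1 to 4. Its groups did not overlap, but the plasma-positive values spread widely, and the log2 fold change of -1.10 ± 0.39 (SE) had an edgeR adjusted p of 0.223. Vps13a, Vps13c and Vps13d had log2 fold changes of -0.60, -0.85 and -0.72 with overlapping libraries. These genes have the longest exons of all members (16299, 17801, 21273 and 24771 bases for Vps13c, Vps13a, Vps13b and Vps13d), and corrected for exon length and GC content the median was -0.35 and the values were -0.13 for Vps13a, -0.61 for Vps13b, -0.48 for Vps13c and -0.22 for Vps13d. Without single libraries Vps13a ran from -1.24 to -0.36, Vps13b from -1.40 to -0.83, Vps13c from -1.08 to -0.55 and Vps13d from -0.86 to -0.39.

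**Figure D3:**
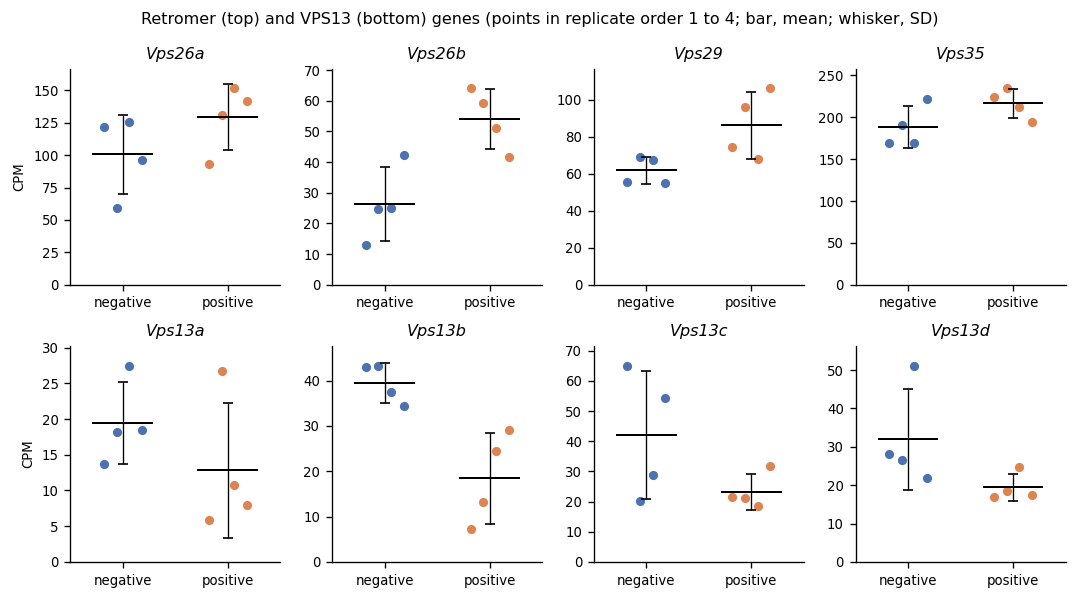
CPM (y axis, linear from 0) per library for the 4 retromer genes (top) and the 4 VPS13 genes (bottom) in plasma-negative and plasma-positive microglia, with the mean and SD. Group means were higher in plasma-positive libraries for all retromer genes and lower for all VPS13 genes, and only Vps13b had groups without overlap.

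HOPS and CORVET share the core subunits VPS11, VPS16, VPS18 and VPS33A, to which HOPS adds VPS39 and VPS41 and CORVET adds VPS8. With the related Vps33b there are 8 genes, of which 4 lay above 0 and 4 below, with a median log2 fold change of 0.06, and none was called by edgeR. Their summed level was 429 ± 63.4 CPM in plasma-negative and 425 ± 60.0 CPM in plasma-positive libraries (SD, n = 4), which differ by far less than the spread. Vps18 had 125 ± 11.1 and 107 ± 19.4 CPM, a log2 fold change of -0.23 ± 0.16 (SE). Vps11 varied most among the core subunits, from 14.5 CPM in plasma-negative replicate 4 to 91.3 CPM in plasma-negative replicate 3, and had a log2 fold change of 0.35 ± 0.40 (SE), which was 0.06 without plasma-negative replicate 4 and 0.76 without plasma-negative replicate 3. Vps16, Vps33a, Vps39 and Vps41 had log2 fold changes of 0.15 ± 0.27, -0.22 ± 0.28, 0.28 ± 0.36 and -0.03 ± 0.25 (SE). The sign for Vps33a turned without plasma-negative replicate 4 (0.05), that for Vps41 turned in 5 settings on all libraries, and that for Vps16 in 2. Vps8 was at 39.9 ± 11.1 and 24.3 ± 6.16 CPM (SD, n = 4), with a log2 fold change of -0.71 ± 0.30 (SE; edgeR adjusted p = 0.315). Among the genes whose promoter holds CACGTG, Vps16 was at 36.7, 26.5, 31.8 and 20.9 CPM in plasma-negative and 34.2, 26.6, 40.0 and 28.8 CPM in plasma-positive libraries, and Vps33a at 36.1, 29.9, 43.1 and 67.3 CPM (plasma-negative) and 40.5, 45.3, 31.9 and 32.7 CPM (plasma-positive). Both sets overlap. Without single libraries the log2 fold change of Vps39 ran from 0.03 to 0.53 and that of Vps16 from 0.04 to 0.29.

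The remaining complexes of the group showed no call either. Retriever, which recycles receptors with SNX17, was represented by Vps35l (114 ± 40.2 and 117 ± 25 CPM; SD, n = 4) and Vps26c (36.5 ± 15.9 and 50.2 ± 8.98 CPM), with log2 fold changes of 0.04 ± 0.25 and 0.47 ± 0.34 (SE). The 5 genes of GARP and EARP, which tether vesicles at the Golgi and recycling endosomes, lay between -0.46 (Vps54) and 0.47 (Vps53). Vps45, a partner of syntaxins on endosomes, had a log2 fold change of 0.96 ± 0.57 (SE), with plasma-negative values from 3.02 to 22.8 CPM. The chromatin gene Vps72 had 0.09 ± 0.20 (SE). These genes were named to complete the group, outside the rule for named genes.

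ESCRT-0 and ESCRT-I capture ubiquitinated cargo. Hgs, the ubiquitin-binding core of ESCRT-0, was at 54.7, 37.5, 29.7 and 63.3 CPM in plasma-negative and 51.2, 54, 73.5 and 58.9 CPM in plasma-positive libraries, a log2 fold change of 0.37 ± 0.26 (SE; edgeR adjusted p = 0.596). Most of its exons (97.2%) coincide with a second gene model of the same symbol in the annotation, so its counts are uncertain. Vps28, which joins ESCRT-I to ESCRT-II, was at 96.7, 99, 96.4 and 110.0 CPM in plasma-negative and 132, 163, 119 and 145 CPM in plasma-positive replicates 1 to 4. All 4 plasma-positive values were higher, the means were 101 ± 6.44 and 139.9 ± 18.5 CPM (SD, n = 4), and the log2 fold change was 0.48 ± 0.14 (SE; edgeR adjusted p = 0.137). The DESeq2 adjusted p was 0.0218, in a range from 0.0218 to 0.815 over all alternatives. The log2 fold change of Vps28 was 0.24 after correction for exon length and GC content. Tsg101, the ESCRT-I subunit that binds ubiquitin, had 51.2, 74.5, 60.3 and 77.7 CPM (plasma-negative) and 53.4, 44.5, 70.6 and 71.3 CPM (plasma-positive) and a log2 fold change of -0.13 ± 0.22 (SE), which ran from -0.24 to -0.01 without single libraries. Neither Vps28 nor Tsg101 was called by edgeR.

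ESCRT-III subunits polymerise at the bud neck, and VPS4 takes the polymer apart. Of the 10 Chmp genes, 7 lay above 0, with a median log2 fold change of 0.23, or 6 with a median of 0.12 after correction for exon length and GC content, and none was called by edgeR. Chmp1a, which recruits VPS4, was at 78.8, 75.5, 60.7 and 58.5 CPM in plasma-negative and 103, 80.1, 111 and 96.6 CPM in plasma-positive libraries. The groups did not overlap, and the log2 fold change was 0.51 ± 0.18 (SE; edgeR adjusted p = 0.204), or 0.31 after correction for exon length and GC content. Chmp3, a late ESCRT-III subunit, was at 80.2, 76.4, 75.7 and 83.8 CPM (plasma-negative) and 106, 95.9, 94.1 and 94.8 CPM (plasma-positive), also without overlap, at 0.31 ± 0.14 (SE; edgeR adjusted p = 0.367). Plasma-positive replicate 1 stood apart as its highest value. Chmp7, which acts at the nuclear envelope, had 35.4, 24.4, 34.7 and 42.1 CPM (plasma-negative) and 45.1, 51.2, 71.3 and 40.9 CPM (plasma-positive). Its groups overlapped at 40.9 to 42.1 CPM, at a log2 fold change of 0.62 ± 0.26 (SE; edgeR adjusted p = 0.307).

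Chmp2a, the partner of Chmp3 in the polymer, was at 71.9 ± 16.8 and 84.5 ± 9.36 CPM (SD, n = 4), with a log2 fold change of 0.24 ± 0.19 (SE) that was -0.05 after correction for exon length and GC content. Chmp4b, the main filament-forming subunit in many cells, was low, at 16.6, 11.1, 8.03 and 10.1 CPM in plasma-negative and 9.02, 13.4, 16.5 and 3.13 CPM in plasma-positive libraries. Its log2 fold change of -0.12 ± 0.54 (SE) ran from -0.42 to 0.18 when single libraries were left out. Vps4b, 1 of the 2 VPS4 ATPase genes, was at 115, 114, 74.5 and 113 CPM (plasma-negative) and 118, 135, 138 and 118 CPM (plasma-positive). The plasma-positive values were all higher, the nearest being 118 against 115 CPM, plasma-negative replicate 3 stood apart below its group, and the log2 fold change was 0.30 ± 0.17 (SE; edgeR adjusted p = 0.484). Vps4a was at 50.6 ± 12.9 and 56.3 ± 5.38 CPM (SD, n = 4), a log2 fold change of 0.15 ± 0.22 (SE) that turned to -0.05 after the same correction. Pdcd6ip, which encodes the ESCRT adaptor ALIX, was at 89.5, 140.0, 116 and 114 CPM (plasma-negative) and 125, 86.6, 126 and 80.8 CPM (plasma-positive), a log2 fold change of -0.14 ± 0.20 (SE).

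Levels of different genes were compared per length of exon, in the deposited RPKM (reads scaled to exon length and library size), as means over all 8 libraries. The highest member was Snx5 at 103 RPKM, followed by Snx3 at 84.1, Snx18 at 69.1, Snx17 at 55.9 and Chmp2a at 51.7 RPKM. Snx3 held that place through the plasma-positive libraries (108 ± 5.98 RPKM, against 73.3 ± 10.5 for Snx18), since in plasma-negative ones it was at 60.5 ± 7.44 and Snx18 at 64.9 ± 5.04 RPKM (SD, n = 4). Vps26a, at 30.9 RPKM, was the highest gene of the retromer-HOPS group and Vps28, at 40.2 RPKM, the highest of ESCRT-I. The VPS13 genes lay between 0.689 (Vps13a) and 1.51 RPKM (Vps13c), and the lowest members were Chmp4c (0.259 RPKM) and Snx31 (0.011 RPKM). Within paralogue pairs, Snx5 made up 71.0% ± 3.29 of the RPKM of Snx5 and Snx6 in the plasma-negative group and 71.1% ± 3.91 in the plasma-positive group (SD, n = 4). Vps26b made up 13.6% ± 6.92 and 19.5% ± 6.06 of the VPS26 pair, Snx1 26.4% ± 6.08 and 32.6% ± 2.25 of the Snx1 and Snx2 pair, Chmp2a 71.6% ± 11.7 and 70.3% ± 4.33 of the CHMP2 pair, and Vps4a 62.7% ± 8.63 and 60.9% ± 3.06 of the VPS4 pair. In none of these 5 pairs were the groups' shares free of overlap.

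Log2 fold changes were lower for genes with longer exons, among the members and among well-expressed genes, and less so over all tested genes. Among the 39 members up to the median exon length of 4339 bases, 31 lay above 0, with a median log2 fold change of 0.24. Among the 38 longer ones 15 did, with a median of -0.08. Spearman's rho of log2 fold change with exon length was -0.38 over the 77 members and -0.46 over the 5176 tested genes of at least 32 CPM, and -0.13 over all 13276 tested genes with an exon length, given as a description, since genes within the same libraries are not independent. After a correction fitted in each library for exon length and GC content, rho was -0.11 for the members, -0.08 for those 5176 genes and 0.07, the opposite sign, over all tested genes, and the medians of the shorter and longer members were 0.13 and -0.05. This correction was the one of 4 settings tried that left the relation closest to 0 in the genes of at least 32 CPM, so the size of that remainder was part of the choice. In the other three, rho was -0.08, -0.17 and -0.18 for those genes and -0.12, -0.18 and -0.19 for the members. Over all tested genes it was -0.02 and -0.01 in the 2 settings fitted on all genes and 0.08 in the third. Under the correction the retromer median went from 0.42 to 0.50, the sorting nexin median from 0.05 to -0.03 and the ESCRT median from 0.22 to 0.13, and edgeR then called none of the members and 33 of all tested genes (0.249%). The correction also moved the log2 fold changes of Hgs (to 0.15), Vps4b (0.51), Vps35 (0.45), Vps18 (-0.39), Snx6 (0.19), Snx10 (-0.27), Snx17 (0.01), Vps16 (0.01), Chmp4b (-0.36), Pdcd6ip (-0.05), Snx2 (0.13) and Snx27 (-0.03) by over 1.5 times, with none of them called before or after by edgeR.

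**Figure D4:**
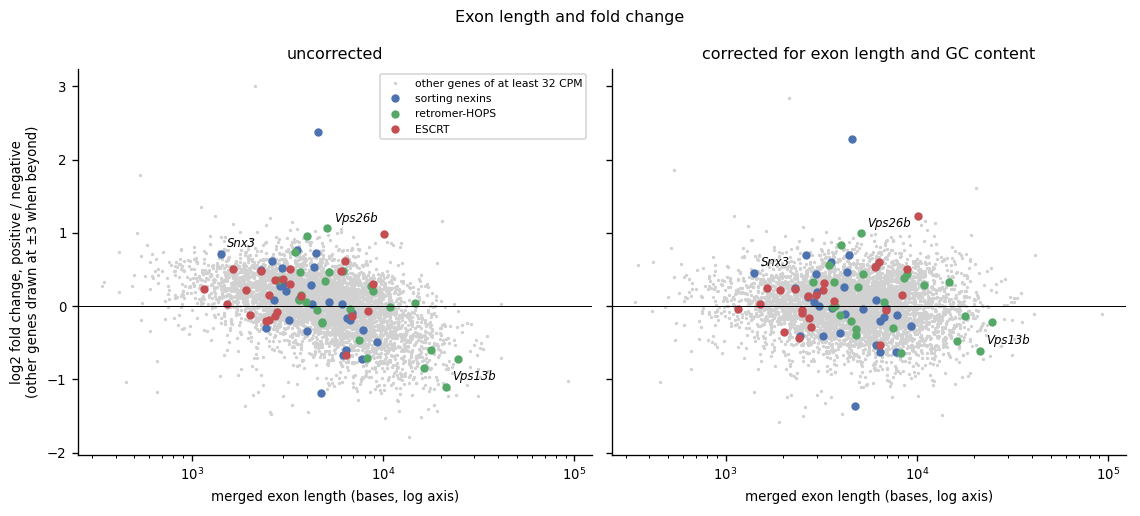
Log2 fold change (y axis) against merged exon length in bases (x axis, log scale) for the members by group and for other genes of at least 32 CPM (grey), before (left) and after (right) the correction for exon length and GC content. On the left short genes lie mostly above 0 and long ones below (rho = -0.46 for genes of at least 32 CPM); on the right the slope is nearly flat (rho = -0.08), Snx3 moves from 0.71 to 0.45, and Vps26b stays near 1.

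Genes that work with these complexes were taken from a list of 51 partners, of which 49 were tested. None was called by edgeR (2 at an unadjusted p under 0.05, both higher, or 4.08% against 13.8% of all tested genes), 30 lay above 0 and the median was 0.06, while DESeq2 called 1 (M6pr). The 2 genes are M6pr and Sorl1. M6pr, the cation-dependent mannose 6-phosphate receptor that delivers hydrolases to lysosomes, was at 270.3, 285, 229 and 323 CPM in plasma-negative and 366, 387, 401 and 409 CPM in plasma-positive replicates 1 to 4. All 4 plasma-positive values were higher, and the log2 fold change was 0.50 ± 0.11 (SE; edgeR adjusted p = 0.0558, or 0.0319 without plasma-negative replicate 4, and up to 0.135 with another library left out). Sorl1, a sorting receptor for the amyloid precursor protein, was at 38.7, 30.0, 19.6 and 31 CPM (plasma-negative) and 38.8, 69.4, 40.5 and 64.7 CPM (plasma-positive). The nearest values, 38.7 and 38.8 CPM, almost meet, and the log2 fold change was 0.84 ± 0.29 (SE; edgeR adjusted p = 0.202).

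The other receptors tested were not called and had overlapping libraries. Sort1 had 136 ± 29 and 136 ± 26.3 CPM, Lrp1 234 ± 20.7 and 211 ± 25.1 CPM, and Trem2, a microglial lipid receptor, 1623 ± 92.9 and 1666 ± 110.0 CPM (SD, n = 4), with log2 fold changes of -0.01 ± 0.19, -0.15 ± 0.12 and 0.04 ± 0.07 (SE). All 3 signs turned after correction for exon length and GC content, to 0.05, 0.14 and -0.05. The WASH complex, which builds actin on endosomes, had 2 of 5 genes above 0 and a median of -0.03. The COMMD and CCDC complex that works with retriever had 8 of 12 above 0 (median 0.09), the VPS34 kinase complex, which makes the lipid that PX domains bind, 4 of 5 (0.14), the ESCRT partners 7 of 10 (0.09), and the RAB7 and tethering partners 6 of 11 (0.14). Rab7, the GTPase that recruits retromer and HOPS, was at 167 ± 24.1 and 189 ± 12.8 CPM (SD, n = 4), a log2 fold change of 0.18 ± 0.13 (SE; edgeR adjusted p = 0.619) that was -0.01 after the correction. The correction also turned the medians of the WASH complex (to 0.05, 3 of 5 above 0), of the ESCRT partners (-0.0085, 5 of 10) and of the RAB7 and tethering partners (-0.003, 5 of 11), so no direction is given for these sets.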

How the data were processed

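RNA of 4 plasma-negative and 4 plasma-positive libraries was analysed, grouped and numbered by their titles. The authors deposited whole-number read counts for each gene and, for the same libraries, RPKM values, that is, reads scaled to exon length and library size. Per the submitters' processing notes, bcl2fastq, Trim Galore, STAR, HTSeq and the mm10 build were used; their versions and the strand setting are not given in the sources used here. Members and gene lists were chosen with earlier results of these data known.

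The test on counts was that of edgeR 4.0.16, run in R 4.3.3 (TMM scaling, default expression filter, quasi-likelihood F test of group alone, all 8 libraries), and p-values were adjusted by Benjamini-Hochberg over 13277 genes. CPM are counts scaled by TMM library size, and SE is the log2 fold change over the square root of F. Genes named are those called, 25 core members, the 3 smallest p-values of each group, and members whose libraries did not overlap; others were added after their values were seen, to complete a complex. Exon lengths, GC content and overlaps came from GENCODE M21 (all 79 members matched by identifier). Exons of 10 members overlap another gene by at least 10%. Alternatives were other scalings and filters, DESeq2 1.42.0, limma 3.58.1 on log2(RPKM + 1) or log2(RPKM + 0.1), the replicate number as a block, a loess fit of counts on exon length and GC content used as a correction (span 0.3, fitted on genes of at least 5 CPM), and leaving out each library. The correction was first fitted on all genes with degree 1. After seeing that it left a length relation among expressed genes, 4 settings were compared (degree 1 or 2, all genes or at least 5 CPM), and the one with the least remaining relation was used.

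Depth was 2963094 to 21422738 counts. Amplified reads are not independent molecules. Tested on simulated data for this comparison with 13277 genes, the fit called 42 of 196 genes changed by 1 on the log2 scale and 110 of 194 changed by 2, all with the right sign, with 1 and 6 false calls. No 2 libraries held identical values.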

Additional observations from a re-analysis of the deposited data

Results flagged for a closer look

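Among 68 groups of 4 libraries examined (31 named members and the summed level of each of the 3 gene groups), 4 held a value far from the other three, where chance gives about 1 in 20 groups, or 5%. Snx1 stood at 123 CPM in plasma-negative replicate 4, against 62.5 CPM in the nearest library of its group. Snx3 was at 96.6 CPM in plasma-negative replicate 3, and the nearest value of its group was 122 CPM. Vps4b was at 74.5 CPM in the same library, against 113 CPM. Chmp3 was at 106 CPM in plasma-positive replicate 1, against 95.9 CPM.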

How the results depend on the processing

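The count of members called, 1 with all libraries, was 4 by DESeq2, 3 by limma on log2(RPKM + 1), 3 by limma on log2(RPKM + 0.1) and 0 after the exon length and GC correction, and ran from 0 to 2 without single libraries (2 without plasma-negative replicate 4, Snx1 and Snx3, and 0 in the other seven). For sorting nexins it was 2, 2, 2 and 0 in those 4 settings and 0 to 2 without single libraries. For retromer-HOPS genes DESeq2 called 1, for ESCRT genes DESeq2 and both limma fits called 1 each, and for partners they called 1 each, with 0 to 1 without single libraries. Over all genes the counts were 965, 447, 432 and 33, and 66 to 203 without single libraries. Of the calls, 112 were higher and 75 lower under TMM scaling, but 64 and 163 under totals only, 388 and 59 for log2(RPKM + 1) and 370 and 62 for log2(RPKM + 0.1). The median log2 fold change of all genes was 0.01, -0.11, 0.11 and 0.16 in turn, so directions of small changes depend on the scaling.

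With the replicate block, edgeR called 0 members and 74 genes (0 sorting nexins), and 0 members and 6 genes with the correction and the block together. Snx3 was then at log2 fold changes of 0.71 (adjusted p = 0.0745) and 0.46 (0.374). The labels do not say whether same-numbered libraries share animals. Their deviations from the group means correlated at 0.0109 to 0.0315, and replicates 1, 2 and 3 each correlated better with another number. Correlations this low cannot decide whether the libraries are paired.

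The correction used, fitted with degree 1 on genes of at least 5 CPM, was chosen after seeing the data. Fitted with degree 1 on all genes, with degree 2 above that minimum and with degree 2 on all genes, it gave 15, 32 and 17 calls over all genes, 0 members and 0 sorting nexins each time, and Snx3 at 0.53, 0.43 and 0.50 (edgeR adjusted p = 0.270, 0.292 and 0.282).

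Of the 31 genes named by rule, 6 changed sign on all libraries: Chmp2a (-0.0454 with the correction used, -0.0167 with correction and block, -0.0609 and -0.0251 with degree 2 above the minimum and on all genes), Vps4a (-0.0507 and -0.0202, then -0.0378 with degree 1 on all genes, -0.0683 and -0.0551 with degree 2), Snx17 (-0.00661 with correction and block, -0.0357 with degree 1 on all genes, -0.000645 and -0.0665 with degree 2), Vps16 (-0.0096 and -0.0235 on all genes with degree 1 and 2), Snx2 (-0.0319 by totals only) and Vps41 (0.0318 and 0.0281 by limma on RPKM plus 1 and plus 0.1, 0.0563 with the correction used, 0.0141 with degree 1 on all genes, 0.0436 with degree 2 above the minimum). Without single libraries, the log2 fold change of Chmp4b ranged from -0.42 to 0.18, Snx2 from -0.0845 to 0.26, Snx27 from -0.25 to 0.14, Vps33a from -0.36 to 0.0502 and Vps41 from -0.20 to 0.16. The sign held but the value moved by over 1.5 times for Hgs (0.21 to 0.55), Snx1 (0.43 to 0.87), Snx6 (0.18 to 0.37), Snx17 (0.06 to 0.32), Tsg101 (-0.24 to -0.01), Vps11 (0.06 to 0.76), Vps16 (0.04 to 0.29), Vps18 (-0.35 to -0.15), Vps26a (0.18 to 0.49), Vps39 (0.03 to 0.53), Chmp2a (0.13 to 0.39), Vps4a (0.05 to 0.31), Vps4b (0.17 to 0.35) and Pdcd6ip (-0.24 to -0.03). The causes were not tested. In simulation most changes of 1 on the log2 scale were not recovered, for genes drawn from all 13277 tested rather than from the members.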
